A study of Homo sapiens with 4 samples.

Results

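Antisense RNA genes that were counted well in a human neuroblastoma line are described here, in untreated cells and in cells given sodium nitroprusside (SNP). The members were the genes of the class antisense_RNA in the deposited tables with a read count of at least 50 in each of the 4 libraries, leaving out ZFAS1, MIAT and names that start with SNHG. This gave 116 genes out of 58243 in the tables and out of 5517 of that class. Of the class, 3245 genes had a count of 0 in every library, 2272 had a count in at least 1 library, and 119 reached 50 in each, of which 3 were left out by name. The members were thus chosen by their counts in all 4 libraries, so the level of these genes is a description. The minimum applies to both groups, and a gene nearly lost in either group could not be a member.

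The cells were SH-SY5Y, an established human neuroblastoma line of sympathetic origin that is used as a model of neurons. The control group was 2 libraries of cells whose agent is given as none, and the SNP group was 2 libraries of cells exposed for 8 h to SNP, which sets free nitric oxide. All libraries are labelled with 24 h of settling and with 10% fetal bovine serum. Per the labels' protocol the treated cells had been differentiated with retinoic acid, several doses were used, and the RNA of the SNP group is called oxidized. The dose that was sequenced is not given. Whether the control cells were differentiated too is not known here. If they were not, SNP and differentiation cannot be told apart in any contrast below. The libraries of each group carry the letters a and b. The labels do not say that these came from separate cultures, so the p-values measure only the spread between these libraries, which may be technical.

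Antisense RNA genes are transcribed from the strand opposite another gene, often from the same promoter region and in the other direction. Many of their transcripts are spliced, polyadenylated and enriched in the nucleus, and many short-lived ones are degraded by the nuclear RNA exosome. Some are known to act on the gene they face and others on distant genes, and for most no role is established. Whether the authors' counting used strand is not stated, so wherever exons of 2 genes cover the same bases the reads of an antisense gene and of its partner cannot be told apart.

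The summed counts per library lay between 5613144 and 8056550, and the SNP libraries were the deeper ones. Antisense RNA genes took 0.706 ± 0.00353% of all reads counted in control and 0.714 ± 0.0355% in SNP (mean ± SD, n = 2 per group; exact permutation test, two-sided, p = 1, where the smallest p possible is 0.333). The members alone took 0.504 ± 0.00474% and 0.493 ± 0.0203%. The labelled cell type was checked against its markers: 9 of 10 adrenergic neuroblastoma markers were tested, among them HAND2, GATA3 and DBH, while TH was at 0 in every library. Their summed level was 3306 to 3427 CPM in control and 2613 to 2837 CPM in SNP, with 2 higher and 5 lower in SNP. Of mesenchymal markers 4 of 7 were tested and COL1A2 was lower, with summed levels of 66.8 to 70.7 CPM against 50.1 to 58.8 CPM. Glial and blood markers summed to at most 2.85 CPM, with MBP and PTPRC among those at 0, and the part of any of these cell types in the results below was not tested.

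The members were modest in level. Their mean deposited RPKM, a read count scaled by exon length and sequencing depth, had a median of 0.706 and a range of 0.136 to 8.22, and 34 of 116 were above 1. Exon length ran from 494 to 21212 bases with a median of 4363, and 114 members were found in the GENCODE 29 annotation of GRCh38, from which all positions here are taken. By RPKM the highest was TUG1, a long noncoding RNA (8.22), followed by HAND2-AS1 (7.45), AD000090.1 (6.94), TSPEAR-AS1 (3.75) and GABPB1-AS1 (3.43). In reads the highest was HAND2-AS1, with a mean count of 4077, ahead of GABPB1-AS1 with 3235 and TUG1 with 3107. Only 6 members had a mean count of at least 1000, and the median of the members' mean counts was 124.6, so most log2 fold changes below rest on few reads.

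Between SNP and control, 24 of the 116 members passed the threshold, a Benjamini-Hochberg adjusted p under 0.05 by the quasi-likelihood test of edgeR, with 14759 genes tested in all. Of these, 6 were higher in SNP (THAP9-AS1, GATA2-AS1, LINC00894, AD000090.1, WAC-AS1 and GABPB1-AS1) and 18 were lower. That is 20.7% of the members, beside 26.2% of all genes tested (13.6% higher and 12.6% lower) and 31.0% of the 10583 genes of any class that also reached 50 counts in each library. By direction, 5.17% of the members were higher and 15.5% lower, beside 15.4% and 15.6% of the genes of any class at that count minimum. The share called was below both of these shares, but beyond the minimum the genes compared were not matched to the members in read count. At the same minimum 27.9% of lincRNA genes, 22.5% of processed transcripts and 22.2% of sense intronic genes were called, and 31.3% of protein-coding genes. Falls outnumbered rises, 18 to 6, but with composition offsets (described below) 11 members were higher and 3 lower. All 116 members were tested, and none had an absolute log2 fold change of 1 or more.

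The median log2 fold change of the members was -0.14, against -0.0042 over all genes tested and -0.015 over genes of any class with 50 counts in each library; with those offsets the members' median was on the other side of 0, at 0.015. Single values ran from -0.84 to 0.87, and 72 members (62.1%) were below 0, against 51.5% of the genes of any class at that minimum. In normalised read count (CPM, counts scaled to a common library size after TMM), both SNP libraries lay above both controls for 26 members and below both for 44, and the groups overlapped for 46. Of all genes tested, 31.7% lay above and 32.3% below, and of genes of any class at the same count minimum 33.0% above and 35.7% below. The 70 members without overlap are 60.3%, beside 64.0% of all genes tested and 68.7% of those at the count minimum. The 24 called members were all among them.

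**Figure D1:**
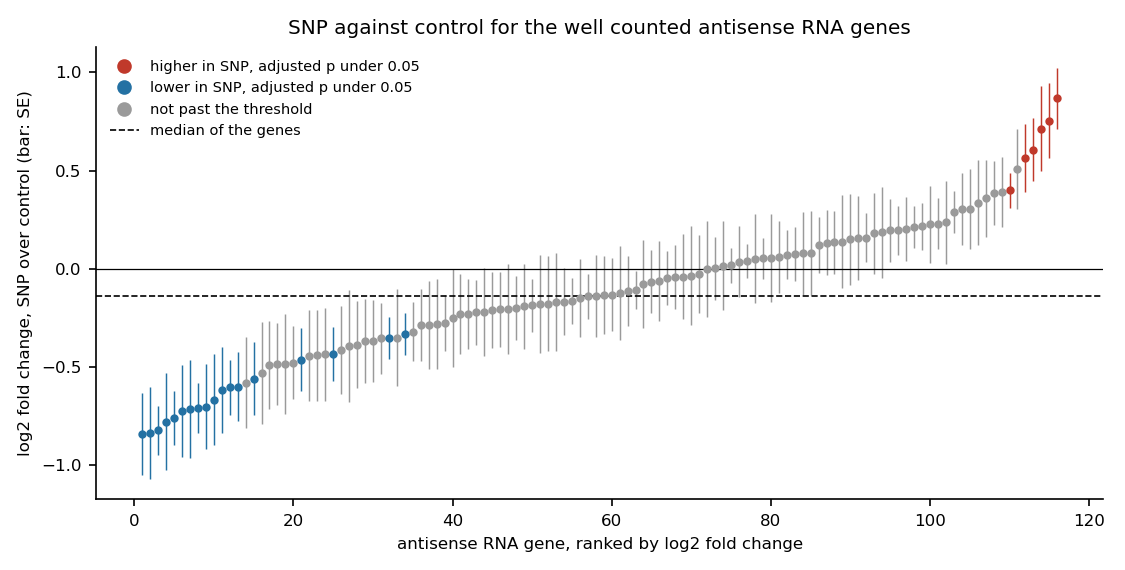
Log2 fold change, SNP over control, of the 116 antisense RNA genes in ranked order, with bars of 1 SE; red and blue points passed the threshold. Values run from -0.84 to 0.87, and the dashed line marks the median of -0.14, which became 0.015 with composition offsets.

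Among the genes higher in SNP, THAP9-AS1 rose most. It is a gene of 4 exons on chromosome 4 (82893009 to 82900960, minus strand, GRCh38) that starts 276 bases from THAP9, a gene for a DNA-binding protein related to transposases. Its level was 31.2 and 23.6 CPM in control a and b and 54.6 and 45.6 CPM in SNP a and b. The groups did not overlap, and the means of 27.4 ± 5.33 and 50.1 ± 6.36 CPM (SD, n = 2) differed by a log2 fold change of 0.87 ± 0.16 (SE; edgeR adjusted p = 0.000365). Of its exon bases, 482 lie in exons of SEC31A on the same strand, a gene of the COPII coat with a mean count of 1676 and a log2 fold change of -0.15 that did not pass the test, so reads in those bases cannot be assigned to either gene.

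GATA2-AS1 runs head to head with GATA2, the gene of a transcription factor of blood and sympathetic neuronal precursors, on chromosome 3 (128489212 to 128502348, plus strand, GRCh38). Its 3 exons overlap no exon of another gene. Reads rose from 13.0 and 12.1 CPM in control a and b to 20.9 and 21.4 CPM in SNP a and b, a log2 fold change of 0.75 ± 0.19 (SE; edgeR adjusted p = 0.0058). Since the partner moved the other way (below), the window around its start is shown, from 250 bases before to 50 bases after the RefSeq start, with every CG dinucleotide in capitals (RefSeq, GRCh38.p14, plus strand, chr3:128488953-128489252).
GATA2-AS1: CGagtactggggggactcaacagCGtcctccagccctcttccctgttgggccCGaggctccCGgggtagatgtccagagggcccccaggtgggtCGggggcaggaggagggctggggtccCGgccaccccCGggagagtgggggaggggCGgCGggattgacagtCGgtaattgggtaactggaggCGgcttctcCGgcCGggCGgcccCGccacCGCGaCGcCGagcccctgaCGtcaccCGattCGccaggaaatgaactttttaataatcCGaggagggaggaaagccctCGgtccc
It holds 24 CG dinucleotides, beside a median of 14 over all 35116 promoter windows of this length and 21 over the 81 windows that matched 59 of the members. It also holds 1 match to CCAAT and 2 to GGGCGG, each searched on both strands and counted separately, and no TATAAA. Of all windows, 34.6%, 45% and 11.5% hold these 3 motifs, and of the members' windows 46.9%, 55.6% and 12.3%.

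GABPB1-AS1 had the most reads of the genes that rose. It starts 449 bases from GABPB1, which encodes a subunit of the transcription factor GABP, and lies on chromosome 15 (50354959 to 50372202, plus strand, GRCh38) with 2 exons. Its level was 405 and 384 CPM in control a and b and 516 and 525 CPM in SNP a and b. This was the smallest rise of the 6 and the one with the smallest standard error, with a log2 fold change of 0.40 ± 0.089 (SE; edgeR adjusted p = 0.00219). GABPB1-AS1 and GABPB1 share 424 exonic bases.

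WAC-AS1, which starts 250 bases from the gene of the adaptor protein WAC on chromosome 10 (28522652 to 28532743, minus strand, GRCh38), went from 22.5 and 17.0 CPM in the controls to 30.2 and 28.5 CPM in SNP. Its log2 fold change was 0.56 ± 0.17 (SE; edgeR adjusted p = 0.0209), and WAC itself, with a log2 fold change of 0.12, did not pass the test. WAC-AS1 and WAC share 251 exonic bases, with mean counts of 175.5 and 1978, so reads in those bases cannot be assigned to either gene. LINC00894, on the X chromosome (149938628 to 150224580, plus strand, GRCh38), was at 10.3 and 9.59 CPM in control and at 15 and 17.8 CPM in SNP. Its log2 fold change of 0.71 ± 0.22 (SE; edgeR adjusted p = 0.018) rests on 54 to 137 reads per library, close to the minimum that chose the members.

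AD000090.1 is the shortest member, with 494 bases in 3 exons on chromosome 19 (35557956 to 35581954, plus strand, GRCh38), and shares no exonic base with another annotated gene. It was at 20.4 and 23.1 CPM in the controls and at 33.4 and 32.7 CPM in SNP, a log2 fold change of 0.61 ± 0.16 (SE; edgeR adjusted p = 0.00796). Its exons hold 9.72 percentage points more guanine than cytosine, the largest excess among the called members. The 120 bases with the largest excess are shown from GENCODE 29 (GRCh38, plus strand, chr19:35575619-35575738), with guanine in capitals, 35 guanines against 23 cytosines.
AD000090.1: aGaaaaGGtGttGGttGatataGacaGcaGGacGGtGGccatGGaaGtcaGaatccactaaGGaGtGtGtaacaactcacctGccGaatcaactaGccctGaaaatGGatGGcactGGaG
The latter part of this stretch resembles the RNA of the large ribosomal subunit, which is made from many gene copies. No ribosomal RNA reference was compared here, so how many of the reads came from such copies was not tested.

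The 10 largest falls were those of AC027097.1, A2M-AS1, AL596202.1, DNM3OS, TSPEAR-AS2, AC027097.2, ZNF337-AS1, TSPEAR-AS1, VPS9D1-AS1 and AP000487.1, with log2 fold changes of -0.84 to -0.67. AL596202.1 had the lowest p-value of all members. It lies on chromosome 6 (155253139 to 155256724, minus strand, GRCh38), and 420 of its 3088 exonic bases face exons of TIAM2, a Rac exchange factor. Control a and b were at 71.4 and 68.0 CPM, and SNP a and b at 40.3 and 38.6 CPM. The replicates lay close together in both groups, and the log2 fold change was -0.82 ± 0.13 (SE; edgeR adjusted p = 6.32e-05), against -0.28 for TIAM2, which did not pass the test.

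TSPEAR-AS1 and TSPEAR-AS2 lie side by side on the plus strand of chromosome 21 (44506807 to 44516575 and 44517216 to 44525952, GRCh38), both inside TSPEAR, which is transcribed the other way and encodes a secreted protein with EAR repeats. TSPEAR itself had at most 1 read in any library. TSPEAR-AS1 was at 78.5 and 99.1 CPM in control a and b and at 51.5 and 56.9 CPM in SNP a and b. TSPEAR-AS2 was at 85.6 and 120 CPM in the controls and at 58.9 and 62.2 CPM in SNP. The neighbours thus fell by like amounts, with log2 fold changes of -0.71 ± 0.13 and -0.76 ± 0.14 (SE; edgeR adjusted p = 0.000365 and 0.000328). Since they moved together, the windows around their RefSeq starts are shown with CG dinucleotides in capitals (GRCh38.p14, plus strand, chr21:44505794-44506093 and chr21:44516965-44517264).
TSPEAR-AS1: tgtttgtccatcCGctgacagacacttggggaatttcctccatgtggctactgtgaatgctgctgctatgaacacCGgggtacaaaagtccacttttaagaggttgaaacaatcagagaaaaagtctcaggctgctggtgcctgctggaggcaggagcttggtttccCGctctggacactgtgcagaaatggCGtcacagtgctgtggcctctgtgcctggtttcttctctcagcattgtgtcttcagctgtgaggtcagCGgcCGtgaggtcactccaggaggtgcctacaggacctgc
TSPEAR-AS2: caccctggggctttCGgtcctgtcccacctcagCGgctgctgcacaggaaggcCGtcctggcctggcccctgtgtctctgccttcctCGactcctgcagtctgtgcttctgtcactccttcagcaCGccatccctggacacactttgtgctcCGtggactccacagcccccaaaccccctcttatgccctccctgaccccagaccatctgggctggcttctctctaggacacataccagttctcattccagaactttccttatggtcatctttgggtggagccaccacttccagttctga
Each window holds 6 CG dinucleotides, under the median of all promoter windows, and neither holds any of these 3 motifs. The RefSeq start of TSPEAR-AS1 lies 763 bases from the GENCODE start, and that of TSPEAR-AS2 lies 1 base from it.

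AC027097.1 and AC027097.2 overlap each other on the plus strand of chromosome 18 (57630302 to 57669296 and 57639455 to 57738603, GRCh38) and share 494 exonic bases, so they are not separate measurements. AC027097.1 was at 19.9 and 20.2 CPM in the controls and at 9.32 and 13.1 CPM in SNP, the largest fall of any member (log2 fold change -0.84 ± 0.21, SE; edgeR adjusted p = 0.00517). AC027097.2 was at 12.5 and 16.3 CPM in control and at 8.06 and 9.34 CPM in SNP (log2 fold change -0.72 ± 0.23, SE; edgeR adjusted p = 0.0265).

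A2M-AS1, on chromosome 12 (9065177 to 9068684, plus strand, GRCh38), overlaps A2M tail to tail, the gene of the protease inhibitor alpha-2-macroglobulin, which had 1 read in control a and 0 elsewhere. The antisense gene was at 15 and 22.2 CPM in control a and b and at 8.69 and 12.1 CPM in SNP a and b. It fell in both SNP libraries, with a log2 fold change of -0.83 ± 0.23 (SE; edgeR adjusted p = 0.0113). DNM3OS, the host transcript of MIR214 inside DNM3 on chromosome 1 (172138397 to 172144840, minus strand, GRCh38), was at 14.7 and 17.6 CPM in control and at 11.8 and 6.87 CPM in SNP. SNP b, with 53 reads, was the lowest library, and the log2 fold change was -0.78 ± 0.25 (SE; edgeR adjusted p = 0.0236).

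VPS9D1-AS1, on chromosome 16 (89711856 to 89718165, plus strand, GRCh38), lies inside VPS9D1, a gene named for its VPS9 domain, and shares 518 of its 1753 exonic bases with it. Its level was 19.0 and 24.5 CPM in control a and b and 10.6 and 16.1 CPM in SNP a and b (log2 fold change -0.70 ± 0.22, SE; edgeR adjusted p = 0.0198). It has the largest deficit of guanine against cytosine among the called members, -8.76 percentage points. The 120 bases with the largest deficit outside exons of other genes are shown from GENCODE 29 (GRCh38, plus strand, chr16:89717522-89717641), with cytosine in capitals, 60 cytosines against 16 guanines.
VPS9D1-AS1: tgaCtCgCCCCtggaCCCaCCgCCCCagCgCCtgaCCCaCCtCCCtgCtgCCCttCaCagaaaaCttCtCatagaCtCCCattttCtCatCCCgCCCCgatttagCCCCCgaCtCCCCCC
AP000487.1, on chromosome 11 (70372246 to 70398488, minus strand, GRCh38), starts 84 bases from CTTN, the gene of the actin-binding protein cortactin. It was at 12.6 and 14.6 CPM in the controls and at 9.19 and 7.91 CPM in SNP (log2 fold change -0.67 ± 0.23, SE; edgeR adjusted p = 0.0387), while CTTN rose, with a log2 fold change of 0.69 (edgeR adjusted p = 3.88e-05). Of the 3078 exonic bases of AP000487.1, 549 lie in exons of PPFIA1, so reads there cannot be assigned to either gene. PPFIA1 had a mean count of 825 and rose, with a log2 fold change of 0.45 (edgeR adjusted p = 0.00345). ZNF337-AS1 is described with its partner below.

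**Figure D2:**
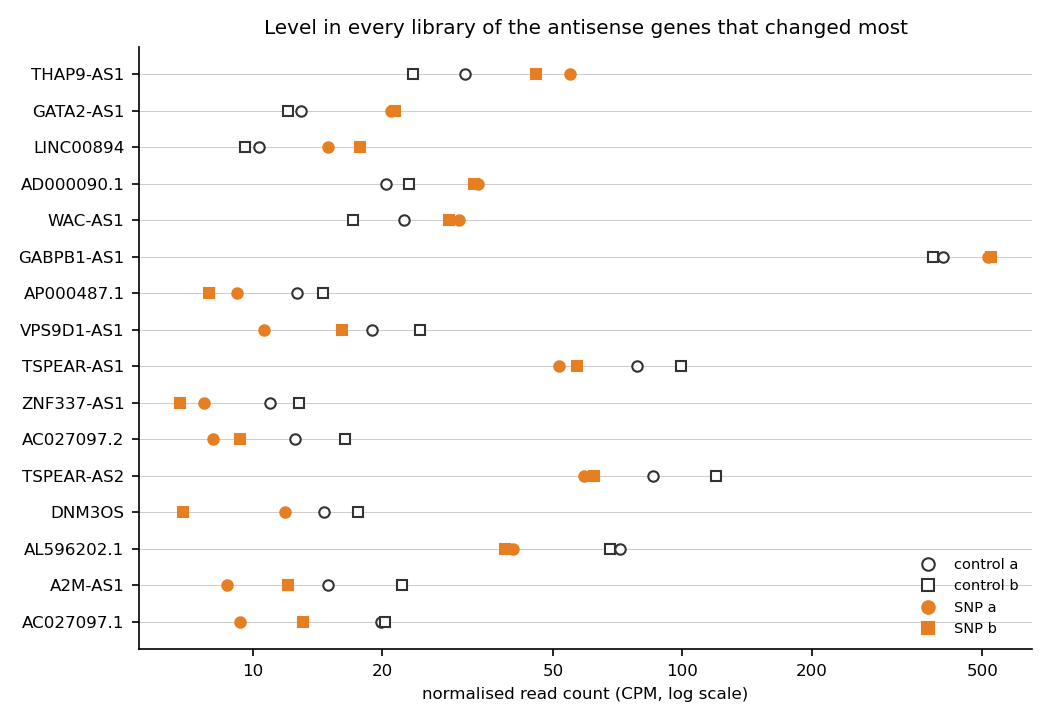
Normalised read count (CPM, log scale) in each library of the 6 antisense genes that rose and the 10 that fell most; open symbols are control and filled symbols SNP, circles library a and squares library b. In every row both filled symbols lie on one side of both open ones, as the rule that chose these genes required. GABPB1-AS1, at 384 to 525 CPM, is far above the others.

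The other 8 members lower in SNP, outside the rule for describing genes in full, were AL645568.1, PINK1-AS, ZNF213-AS1, AC124319.2, AC009948.1, NNT-AS1, TTN-AS1 and CCDC144NL-AS1, with log2 fold changes of -0.62 to -0.33. PINK1-AS, opposite the mitochondrial kinase gene PINK1, was at 48.1 and 54 CPM in control and at 32.2 and 34.9 CPM in SNP. Of its 4443 exonic bases 1907 lie in exons of PINK1, whose log2 fold change of 0.48 did not pass the test. TTN-AS1, with 68 exons opposite the titin gene, was at 149 and 155 CPM in the controls and at 112 and 126 CPM in SNP, while TTN had 2 to 18 reads per library.

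The highest members per length, TUG1 and HAND2-AS1, did not pass the test. TUG1 was at 451 and 437 CPM in control and at 463 and 437 CPM in SNP, with overlapping groups and a log2 fold change of 0.018 ± 0.089 (SE; edgeR adjusted p = 0.905), which was -0.075 with offsets for length and GC. HAND2-AS1 was at 566 and 592 CPM in control and at 594 and 595 CPM in SNP (log2 fold change 0.039 ± 0.087, SE; edgeR adjusted p = 0.785), so its groups lay apart by less than the model's error. Further abundant members were FGD5-AS1, at 122 and 126 CPM in control and 162 and 141 CPM in SNP, just outside the threshold (edgeR adjusted p = 0.051), and NUTM2B-AS1, at 232 and 215 CPM in control and 208 and 207 CPM in SNP (edgeR adjusted p = 0.443).

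Single calls rested on few libraries. Of the 24, 6 passed the threshold whichever library was left out, namely THAP9-AS1, GABPB1-AS1, AL596202.1, TSPEAR-AS1, TSPEAR-AS2 and AC027097.1; the number called was 13 without control a, 11 without control b, 17 without SNP a and 27 without SNP b. The Wald test of DESeq2 called 11, all among the 24, with the same 6, GATA2-AS1, AD000090.1, PINK1-AS, TTN-AS1 and CCDC144NL-AS1.

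The change of the members went with their base composition. Across the 114 annotated members, the log2 fold change and the excess of guanine over cytosine in the exons had a Spearman correlation of 0.53, a description over genes that share the 4 libraries. Among the 61 members with less guanine than cytosine, edgeR called 0 higher and 14 lower, with a median log2 fold change of -0.23. At an unadjusted p under 0.05, 1 of these 61 was higher, DESeq2 called 0 higher, and with the composition offsets described next 5 were called higher. Among the 53 with more guanine, 6 were higher and 4 lower, with a median of 0.061. The 4 that fell with more guanine than cytosine were AL596202.1, DNM3OS, AL645568.1 and TTN-AS1, all with an excess under 1 percentage point.

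Composition offsets were then fitted per library over all genes, on length, on GC content and on the balance of guanine against cytosine. With them, 14 members were called, 11 higher and 3 lower, in place of 6 and 18, and 7 of these were among the 24. Those were THAP9-AS1, GATA2-AS1, LINC00894 and GABPB1-AS1, higher, and AL596202.1, DNM3OS and TTN-AS1, lower. TSPEAR-AS1 and TSPEAR-AS2 then had log2 fold changes of -0.26 and -0.32, VPS9D1-AS1 of -0.062 and AD000090.1 of 0.15, none past the threshold. TUG1 moved to 0.34 and was called higher (edgeR adjusted p = 0.003). Under those offsets 18.7% of all genes tested were called, and the Spearman correlation over the members was -0.19. Since the offsets were fitted on the balance of guanine against cytosine, loss of the positive correlation was built in.

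**Figure D3:**
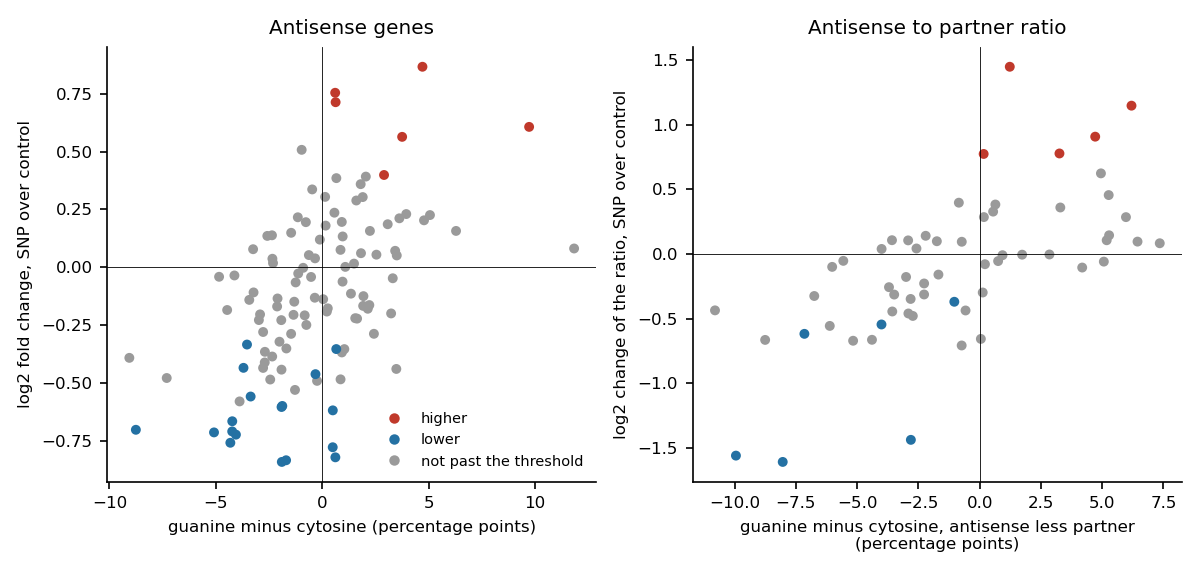
Left, log2 fold change of the 114 annotated antisense genes against guanine minus cytosine in their exons (percentage points); right, log2 change of the antisense to partner ratio of 59 pairs against the difference of that measure between the genes. Red points were called higher and blue lower. Spearman correlations are 0.53 and 0.68. With composition offsets, which were fitted on the balance of guanine against cytosine, the left value was -0.19.

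Exons of other genes covered part of most members. In 99 of 114 at least 1 exonic base lay in an exon of another gene, on the opposite strand in 94, with a median of 11.3% of the exon length, and in 10 members the share was over 50%. The 15 members free of overlap held 3 of the calls: GATA2-AS1 and AD000090.1, higher, and AL645568.1, lower. Their median log2 fold change was -0.19, beside -0.13 for the 99 with overlap.

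A coding gene on the opposite strand started within 1000 bases of 53 members. This was judged by the distance of the starts alone, whether or not the genes overlapped. Of these 53, 4 were higher and 4 lower, with a median log2 fold change of -0.11, and of the 61 others 2 were higher and 14 lower, with a median of -0.18. Of the 50 tested neighbours, 8 were higher and 4 lower in SNP, with a median of 0.057. Over all genes tested, 13.6% were higher and 12.6% lower. Among genes of any class with 50 counts in each library, 15.4% were higher and 15.6% lower. The neighbour was the gene in the antisense name for only 20 of the 53.

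Of the 116 members, 69 have names that end in AS1 to AS9 and refer to 68 partner genes. For 59 of these pairs both genes had a mean of at least 10 counts, and the ratio of antisense to partner reads was compared per library by limma on log2 ratios, adjusted over all 162 such pairs of the tables. The ratio changed in 11 of the 59 pairs (18.6%), beside 16.0% of all pairs tested, of which 10.5% were higher and 5.56% lower in SNP. It was higher in SNP for TMEM147-AS1, GATA2-AS1, DLX6-AS1, THAP9-AS1 and ROR1-AS1. It was lower for ZNF337-AS1, CCDC144NL-AS1, NUTM2B-AS1, NOP14-AS1, UBA6-AS1 and HAND2-AS1. Taken gene by gene, edgeR called only the partner in 15 pairs, only the antisense gene in 5, both in 4 and neither in 35. Of the 59 partners, 10 were higher and 9 lower, beside 13.6% and 12.6% of all genes tested. Among genes of any class with 50 counts in each library, 31.0% were called in either direction. A ratio is of reads, with 0.5 added to each count and no account of gene length, so only its change between the groups is compared.

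In the largest fall of a ratio, both genes moved and in opposite directions. ZNF337-AS1, on chromosome 20 (25624045 to 25678074, plus strand, GRCh38), went from 10.9 and 12.8 CPM in control a and b to 7.68 and 6.74 CPM in SNP a and b (log2 fold change -0.71 ± 0.25, SE; edgeR adjusted p = 0.0373). ZNF337, a zinc finger gene, went from 418 and 366 reads to 913 and 969 reads, a log2 fold change of 0.89 ± 0.11 (SE; edgeR adjusted p = 8.28e-06). There were 0.171 and 0.198 antisense reads per partner read in the controls and 0.0673 and 0.0542 in SNP, a log2 change of -1.61 ± 0.30 (SE; limma adjusted p = 6.69e-06). The genes meet tail to tail and share 2823 exonic bases, more than in any other of the 11 pairs, so the reads of the one include reads that may belong to the other.

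GATA2-AS1 and GATA2 also moved in opposite directions, with no shared exonic base. GATA2 had 3702 and 3241 reads in the controls and 3253 and 3585 in the deeper SNP libraries, a log2 fold change of -0.39 ± 0.092 (SE; edgeR adjusted p = 0.00326). Antisense reads per GATA2 read were 0.0228 and 0.0211 in control and 0.0512 and 0.0462 in SNP. The ratio was thus 2.21 times higher in SNP (log2 change 1.15 ± 0.25, SE; limma adjusted p = 0.000154), while GATA2 kept by far the more reads.

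TMEM147-AS1, on chromosome 19 (35540738 to 35546029, minus strand, GRCh38), starts 434 bases from TMEM147, the gene of a protein of the endoplasmic reticulum membrane. It passed from 0.869 and 0.645 reads per TMEM147 read in control a and b to 2.37 and 1.76 in SNP a and b. The groups were well apart, and the log2 change of the ratio was 1.45 ± 0.29 (SE; limma adjusted p = 2.72e-05). TMEM147 alone fell (log2 fold change -0.94 ± 0.22, SE; edgeR adjusted p = 0.00351), and TMEM147-AS1 alone did not pass the test (0.51 ± 0.20; edgeR adjusted p = 0.0694). These genes share 93 exonic bases.

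DLX6-AS1 spans DLX6, a homeobox gene of the developing forebrain, on chromosome 7 (96955141 to 97014065, minus strand, GRCh38), and had 3.13 and 3.83 reads per DLX6 read in the controls and 6.01 and 7.02 in SNP (log2 change 0.91 ± 0.28, SE; limma adjusted p = 0.0128). DLX6 fell by 0.72 on the log2 scale (edgeR adjusted p = 0.0237), and the antisense gene, at 52.3 and 50.6 CPM in control and 59.3 and 58.6 CPM in SNP, did not pass the test. THAP9-AS1 had 1.74 and 1.30 reads per THAP9 read in control and 2.72 and 2.44 in SNP (log2 change 0.78 ± 0.24, SE; limma adjusted p = 0.0128). Taken singly, THAP9-AS1 was called and THAP9, with a log2 fold change of 0.10, did not pass the test. They share 199 exonic bases, so reads there cannot be assigned to either gene. ROR1-AS1, inside the receptor gene ROR1 and with no exonic overlap, went from 0.114 and 0.134 to 0.189 and 0.236 reads per ROR1 read (log2 change 0.77 ± 0.28, SE; limma adjusted p = 0.0443), and ROR1 fell by 0.64 on the log2 scale (edgeR adjusted p = 0.000419).

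HAND2-AS1 and HAND2 face each other head to head, with 867 shared exonic bases, and HAND2 encodes a transcription factor of sympathetic neurons. HAND2-AS1, on chromosome 4 (173527270 to 173659696, plus strand, GRCh38), had 1.07 and 1.12 reads per HAND2 read in the controls and 0.870 and 0.824 in SNP. With 2970 to 5572 reads in each gene, this small shift had the smallest standard error of the 59 pairs (log2 change -0.37 ± 0.068, SE; limma adjusted p = 6.69e-06). It came with a rise of HAND2 (log2 fold change 0.41 ± 0.087, SE; edgeR adjusted p = 0.00149) and no call for HAND2-AS1.

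The partners of NUTM2B-AS1 and CCDC144NL-AS1 had few reads. NUTM2B had 7 and 12 reads in the controls and 40 and 24 in SNP, so the ratio fell from 201 and 96.9 to 40.9 and 65.1 (log2 change -1.44 ± 0.42, SE; limma adjusted p = 0.00797). CCDC144NL had 6 and 10 reads in control and 30 and 20 in SNP, so the ratio fell from 204 and 96.6 to 37.1 and 61.2 (log2 change -1.56 ± 0.45, SE; limma adjusted p = 0.00671). These ratios rest on the few partner reads. Both partners reached the mean of 10 counts only through their SNP libraries, which favours a fall of the ratio. With no filter beyond a total count above 0, the limma adjusted p was 0.162 for each pair. CCDC144NL-AS1 itself, at 204 and 180 CPM in control and 142 and 163 CPM in SNP, was lower on its own count too (edgeR adjusted p = 0.024).

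NOP14-AS1, tail to tail with the ribosome assembly gene NOP14, had 0.574 and 0.546 reads per NOP14 read in control and 0.307 and 0.435 in SNP (log2 change -0.62 ± 0.22, SE; limma adjusted p = 0.0375). UBA6-AS1 starts 101 bases from UBA6, the gene of a ubiquitin-activating enzyme, with the bodies of the genes apart. It had 0.201 and 0.223 reads per UBA6 read in the controls and 0.125 and 0.168 in SNP (log2 change -0.54 ± 0.20, SE; limma adjusted p = 0.0414). Neither NOP14-AS1 nor UBA6-AS1 passed the test alone. NOP14-AS1 and NOP14 share 605 exonic bases.

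**Figure D4:**
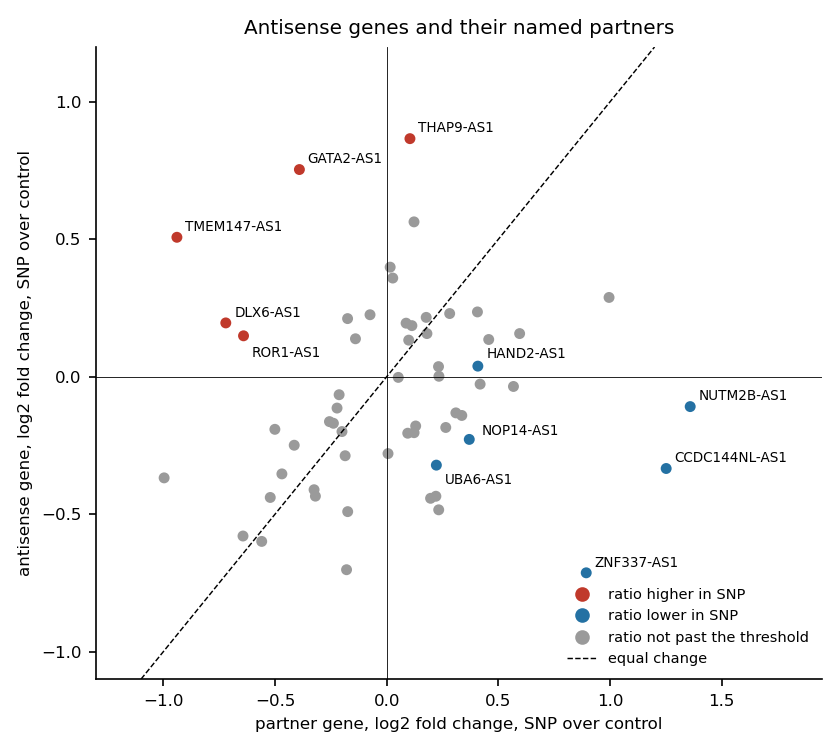
Log2 fold change, SNP over control, of 59 antisense genes (vertical) against that of their named partners (horizontal); coloured points are the 11 pairs whose ratio passed the threshold, and the dashed line marks equal change. GATA2-AS1 and TMEM147-AS1 lie in the upper left, where the antisense value is positive and the partner's negative, and ZNF337-AS1 in the lower right.

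**Figure D5:**
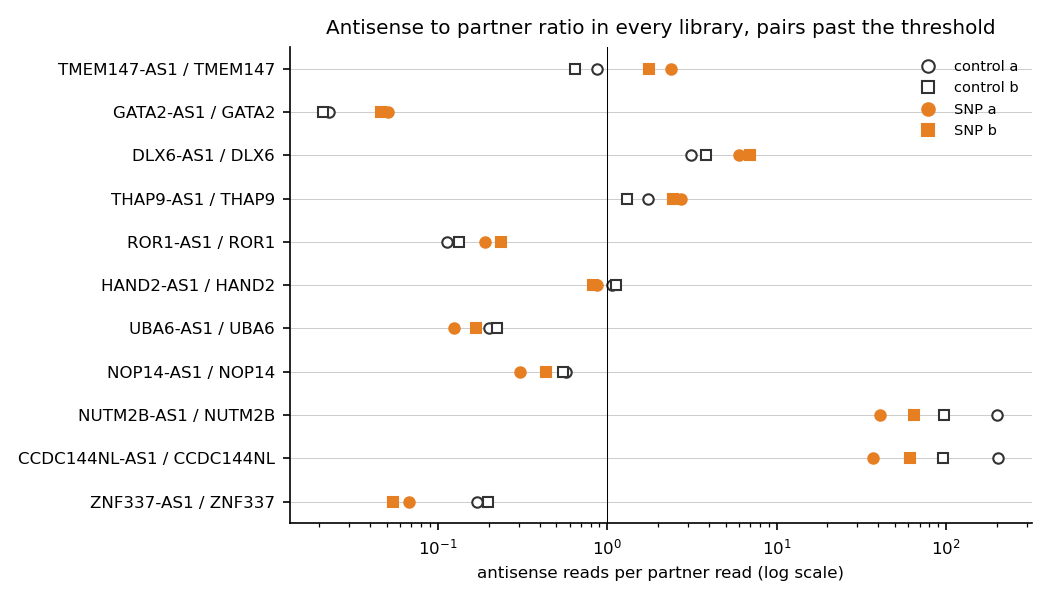
Antisense reads per partner read (log scale) in each library for the 11 pairs past the threshold; open symbols are control and filled symbols SNP, circles library a and squares library b. Filled and open symbols do not overlap in any pair; TMEM147-AS1 went from 0.645 and 0.869 to 1.76 and 2.37.

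The abundant pairs GABPB1-AS1 and FGD5-AS1 did not pass. GABPB1-AS1 had 10.8 and 11.2 reads per GABPB1 read in control and 13.8 and 15 in SNP (log2 change 0.38 ± 0.19, SE; limma adjusted p = 0.14). FGD5-AS1 had 106 and 83.6 reads per FGD5 read in control and 73.7 and 48.2 in SNP (log2 change -0.66 ± 0.46, SE; limma adjusted p = 0.312), with 7 to 22 reads of FGD5.

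In 2 pairs, both genes were called in the same direction: NNT-AS1 with NNT, the mitochondrial transhydrogenase gene, and ZNF213-AS1 with ZNF213. NNT-AS1 and NNT had log2 fold changes of -0.43 and -0.32, and ZNF213-AS1 and ZNF213 of -0.60 and -0.56. Their ratios overlapped between the groups. Over the 59 pairs the antisense and partner log2 fold changes had a Spearman correlation of 0.15, with the same libraries behind both.

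Of the 69 pairs, 29 overlap head to head, 20 tail to tail, 9 have the partner inside the antisense gene, 6 the reverse, and 5 are divergent with bodies apart; the 11 pairs that changed numbered 5, 2, 2, 1 and 1 in these layouts. Of the 40 tested pairs that share exonic bases 5 changed, and of the 19 that share none 6 did. The log2 change of the ratio followed the difference in guanine minus cytosine between the genes, with a Spearman correlation of 0.68 over the 59 pairs. Calls of pairs also depended on single libraries: 4 were called without control a, 5 without control b, 5 without SNP a and 10 without SNP b, and ZNF337-AS1, TMEM147-AS1 and GATA2-AS1 were called in all 4 cases. With edgeR and the partner's count as an offset 7 were called, and the ratios of HAND2-AS1, NOP14-AS1, UBA6-AS1 and ROR1-AS1 were not among them.

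Genes of the machinery that turns over such RNAs were read from the same fit. Of 24 tested genes of the nuclear exosome and its adaptors, 10 were higher and 1 lower, with a median log2 fold change of 0.27. Beside this, 13.6% of all genes tested were higher and 12.6% lower. The largest changes were those of NCBP2, a cap-binding subunit, from 52.5 ± 2.07 to 99.0 ± 21.6 CPM (log2 fold change 0.92; edgeR adjusted p = 5.46e-05), PABPN1, the nuclear poly(A)-binding protein (0.91; 3.97e-05), and MPHOSPH6, an exosome cofactor (0.74; 0.026). Of 17 tested genes of the Integrator complex and early termination, 2 were higher and 3 lower, with a median of -0.083. The share called in this list was near that over all genes tested, 26.2%. INTS5 fell by 0.99 and INTS9 by 0.67 on the log2 scale (edgeR adjusted p = 0.000218 and 0.000872), and the termination factor PCF11 rose by 0.42 (edgeR adjusted p = 0.00563). Whether these changes bear on the antisense RNAs was not tested.

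At the edge of the count minimum, 10 members had a lowest count of 50 to 54, with log2 fold changes of -0.78 to 0.71 and a median of -0.21. A further 19 genes of the class had a lowest count of 45 to 49, from -0.91 to 1.26 with a median of 0.013. LINC00894, DNM3OS and ZNF337-AS1 were called members just inside, and OTUD6B-AS1, with 71 and 45 reads in control and 177 and 181 in SNP, was the called gene with the largest change just outside.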

How the data were processed

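The data were gene tables of 4 RNA sequencing libraries, assigned to groups by the sample titles; per the labels, reads were 75 bp and the genome build was GRCh38, named in the submitters' processing notes. The aligner, the counter, its use of strand and its annotation are not given in the sources used here. The main values deposited are raw read counts per gene, whole numbers without normalization. The deposited RPKM values are scaled by exon length and by a read total larger than the summed counts, per the file headers and the values, and served for levels per length and that read total. The TPM column deposited by the authors sums to 1000000 per library and was not tested. Between 88.8% and 89.0% of the genes checked in each library had an implied length within 1 base of the exon length in GENCODE 29, and 57980 of 58243 identifiers were found there.

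Counts were filtered by filterByExpr (minimum count 10, minimum total 15), scaled by TMM (factors 0.989 to 1.01) and compared by edgeR 4.0.16's quasi-likelihood test in R 4.3.3 with no covariate, adjusted over all genes at 0.05. Pair ratios, log2((antisense + 0.5)/(partner + 0.5)), were compared by limma 3.58.1 with a trend. This pools the spread over pairs, so the standard error and p-value of a pair do not measure the spread of its own libraries alone. Offsets were per-library lowess curves (span 0.5, 3 rounds). Base composition is over all annotated transcripts of a gene. The scripts were tested on simulated data. DESeq2 1.42.0, the replicate letter as a block, other filters, scalings and thresholds, and leaving out each library were tried as alternatives. Same-lettered deviations had a correlation of 0.055 over all genes, which cannot show whether the letters mark shared cultures.

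The members, gene lists and tests were chosen with earlier results of these data known. Members described in full are the up to 10 largest rises and falls past the threshold with groups that do not overlap, the 5 highest by RPKM, up to 10 pairs by change of ratio, the 5 pairs with the most antisense reads, and up to 3 genes per list; any other gene was named after its values were seen. Summed counts per library set the precision of each value.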

Additional observations from a re-analysis of the deposited data

How the results depend on the processing

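The number of members called stayed within 1.5 times of 24 under both other count filters, both other scalings, and offsets for length and GC. It was 11 (7 lower) with the Wald test of DESeq2 and 9 (5 lower) at an adjusted p under 0.01. Other settings changed the set of genes, so their counts have other totals than 116. Of 15 members free of exonic overlap 3 were called (2 higher, 1 lower). With a minimum of 100 counts 13 of 58 were called (3 higher, 10 lower), and the median log2 fold change was -0.056. With a minimum of 20 counts 34 of 251 genes were called, 14 higher and 20 lower. With the composition offsets 14 were called, 11 higher and 3 lower, and the median turned to 0.015; the cause was not tested. Leaving out a library gave 11 to 27 members called, 3 to 7 higher, 8 to 20 lower, and a median of -0.17 to -0.043.

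The ratio changed in 3 of 68 pairs with no filter, and in 5 of the 19 that share no exonic base. Of the 59 pairs it changed in 7 with edgeR and the partner's count as an offset, and in 6 at an adjusted p under 0.01. With the replicate letter as a block, 27 members were called and 0 pairs by limma, with 1 residual degree of freedom among the 4 libraries. The lowest adjusted p of the pairs by limma was then 0.058, with 19 pairs at an unadjusted p under 0.05. The members' same-lettered deviations had a correlation of -0.030. With 1 difference per group and mostly few reads, this cannot show whether the letters mark shared cultures. The log2 fold change of TUG1, which edgeR called only with the composition offsets, was -0.075 with length and GC offsets, with and without the replicate block, and -0.025 to 0.063 with a library left out. The difference in the share of antisense counts kept its direction with the read total implied by RPKM and without the most abundant antisense gene. Depth sets the precision: the standard error on the log2 scale was 0.087 for HAND2-AS1, the member with the most reads, and 0.25 for ZNF337-AS1, near the count minimum.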

Other observations

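Most antisense RNA genes that missed the count minimum in at least 1 library were not called, and those that were called were mostly higher. Of 423 such genes tested, 28 were higher and 3 lower in SNP, which is 7.33%, beside 26.2% of all genes tested, with a median log2 fold change of 0.040. They could pass the filter through 1 group alone, and the SNP libraries were deeper. The following were chosen after their values were seen. KCNMB2-AS1 had 4 and 2 reads in control a and b and 65 and 72 in SNP a and b (log2 fold change 4.10 ± 0.47, SE; edgeR adjusted p = 2.8e-06). GAS6-AS1, opposite the gene of the growth factor GAS6, had 29 and 24 reads in control and 145 and 172 in SNP (log2 fold change 2.21 ± 0.24, SE). TMC3-AS1 was among the 3 that fell, from 22 and 28 reads to 9 and 11 reads (log2 fold change -1.69 ± 0.47, SE; edgeR adjusted p = 0.0112).

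Other noncoding classes at the same minimum of 50 counts in each library were read from the same fit. Of genes of any class at that minimum, 15.4% were higher and 15.6% lower. Of 129 lincRNA genes 16 were higher and 20 lower, with a median log2 fold change of -0.082. Of 80 processed transcripts 10 were higher and 8 lower, with a median of 0.058, and of 27 sense intronic genes 3 were higher and 3 lower, with a median of -0.16.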
